A study of Mus musculus with 6 samples.

Results

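Natural killer (NK) and cytotoxic cell genes were followed in splenic B cells of 2 Btk-defective mouse lines and of wild type mice. The list holds 9 genes: the NK receptors Klra3 and Klrd1, the transcription factor Eomes, the granule proteins Gzma, Gzmb, Prf1 and Nkg7, the cytokine receptor chain Il2rb and the death ligand Fasl. Members were all probe sets that the array's annotation gives to 1 of these symbols alone. This gave 9 probe sets for 8 of the 9 genes, out of 12422 probe sets on the array without controls. Nkg7 was not analysed here. All 9 probe sets were among the 7453 kept by the filter on dim signals. That filter used the mean over all 6 arrays, so high signal in 1 group could carry a probe set past it. The RNA came from whole splenic B cells of adult mice, with 2 Affymetrix MG_U74Av2 arrays for each of 3 groups. The first group, Btk KO, came from Btk KO/SW129 mice crossed back to CBA for 9 generations. The second, Xid, is the strain CBA/N, which carries the Btk mutation R28C. The third is wild type CBA. Btk is a tyrosine kinase downstream of the B cell receptor. How the B cells were purified, and whether an RNA came from 1 mouse or a pool, is not given in the sources used here, so p-values measure only the spread between these arrays. A mutation and other differences of the same line cannot be told apart.

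NK cells and cytotoxic T cells kill target cells by releasing granules that hold perforin and granzymes. Perforin opens the target membrane, and the granzymes, a family of serine proteases, then enter the target and start its death. NK cells sense their targets through lectin-like receptors of the Klr families, many of which bind class I molecules of the major histocompatibility complex, and they depend on interleukin-15, which signals through Il2rb. In the mouse spleen NK cells, with activated CD8 T cells, are the main known carriers of these transcripts.

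The replicate numbers mark runs. A first set of 3 chips, 1 per group, was followed by a second set made from new mice, and each set came from 1 chip lot. The Btk KO array of run 1 was hybridised on a day of its own. Its ratio of 3' to 5' signal, a measure of RNA quality, was 10.4 for Gapdh, against 0.756 to 1.61 on the other 5 arrays. Results are therefore also given without that array for the members called in the blocked fit, for Il2rb and for some other named genes. Btk KO then rests on 1 array, so that group adds nothing to the estimate of spread. Median intensity was between 32.5 and 37.6 scaled units on all arrays; precision is limited by having 2 arrays per group. The brighter Btk probe set read 276.1 and 173.6 in Btk KO, 841.0 and 643.9 in Xid and 874.1 and 749.8 in CBA. The B cell markers were bright throughout: Cd79a, a chain of the B cell receptor, lay between 3066.3 and 6004.4 on the 6 arrays. In these bulk samples a change in the number of cells of a type and a change in RNA per cell cannot be told apart.

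Of the 9 member probe sets, 8 were higher on both Btk KO arrays than on both CBA arrays, with ratios of the means between 2.03 and 3.62. Over all kept probe sets 20% lay apart in that direction. The exception was Il2rb. The dimmer Eomes probe set and Fasl are among the 8, but passed the dim filter only through their Btk KO signal. On the Xid and CBA arrays alone, their mean log2 values lay below its limit of about 19.8 in intensity. Their place in the counts of this paragraph is therefore not independent of the filter. Within both runs 8 of 9 were higher, beside 31.4% of all probe sets. The members' median log2 difference of Btk KO against CBA was 1.25, or 1.17 in run 1 and 1.33 in run 2, beside a median of 0.01 over all probe sets tested. With limma and Benjamini-Hochberg adjustment over all 7453 probe sets, 0 members passed an adjusted p of 0.05 without the run in the model, where 0.161% of all probe sets were called higher and 0.0134% lower. This is called the unblocked fit here, and the fit that takes the run as a block the blocked fit. At an unadjusted p under 0.05, 8 of the 9 passed in the unblocked fit, beside 8.83% of all probe sets, and 8 in the blocked fit, beside 15.1%. In the blocked fit 4 members rose (Klra3, Klrd1, Gzma and the brighter Eomes probe set), beside 1.42% of all probe sets called higher, and 0 fell, beside 0.805%. With the Btk KO array of run 1 left out, the blocked fit called 2 (Klrd1 and Gzma), beside 0.805% of all probe sets.

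**Figure D1:**
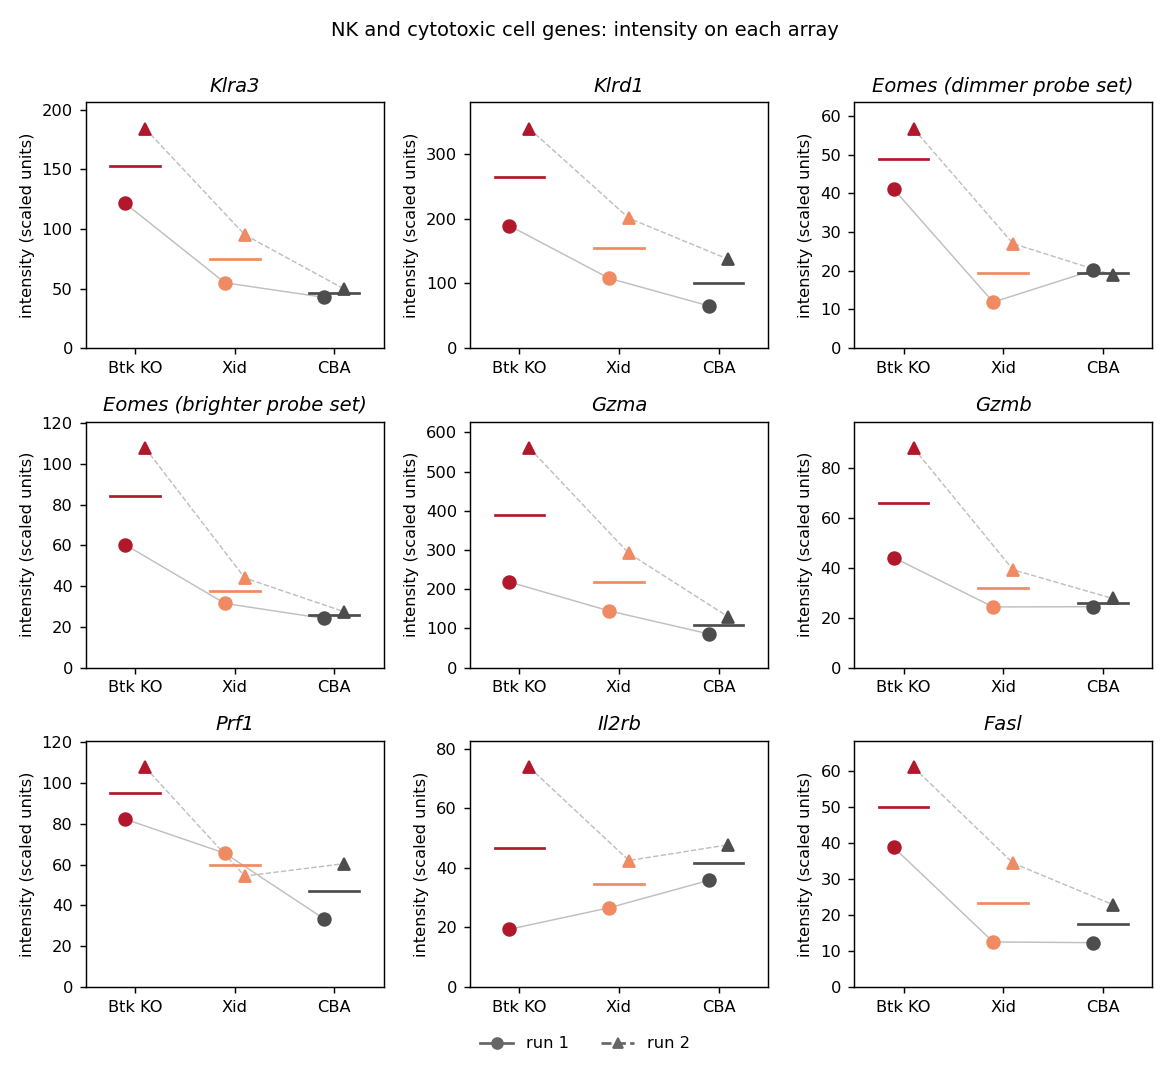
Intensity of each member probe set (scaled units, linear axis from 0) on the 6 arrays, by group; circles are run 1, triangles run 2, thin lines join arrays of 1 run and horizontal bars are group means (n = 2). Both Btk KO arrays lie above both CBA arrays in every panel but that of Il2rb, where Btk KO spans 19.4 to 73.8.

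The NK receptors were the first members examined. Klra3 belongs to the Ly49 family, whose members bind class I molecules on the mouse NK cell surface. Klra3 measured 121.4 and 184.1 in Btk KO, 54.9 and 95.1 in Xid and 42.6 and 49.6 in CBA. The 3 groups did not overlap, with Btk KO highest and CBA lowest. Its mean was 153 ± 44.3 in Btk KO and 46.1 ± 4.95 in CBA (SD, n = 2 each), a ratio of 3.31. The log2 difference was 1.58 ± 0.33 (SE), with adjusted p = 0.155 in the unblocked limma fit and 0.0167 in the blocked one. With the Btk KO array of run 1 left out, the blocked fit gave adjusted p = 0.055. A probe set of this type, marked f, can read several transcripts of 1 family, so Klra3 cannot be told from its closest relatives here. Besides it, 2 probe sets are given by the annotation to both Klra3 and Klra9, and they were not counted as members. The first of them measured 87.6 and 121.9 in Btk KO, 48.9 and 64.7 in Xid and 33.5 and 46.0 in CBA, a difference of 1.27 between Btk KO and CBA (adjusted p = 0.198 unblocked, 0.0338 blocked, and 0.132 blocked with the Btk KO array of run 1 left out). The other measured 49.0 and 98.7 in Btk KO, 40.3 and 50.5 in Xid and 11 and 34.1 in CBA, a difference of 1.54 (adjusted p = 0.367 unblocked and 0.0552 blocked).

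Klrd1 encodes CD94, which pairs with NKG2 chains on NK cells. It measured 189.1 and 339.0 in Btk KO, 108.0 and 200.7 in Xid and 65.5 and 137.3 in CBA. Within each run the order was Btk KO, Xid, CBA, yet the lower Btk KO array lay below the higher Xid array. The difference of Btk KO against CBA was 1.36 ± 0.45, at 1.45 in run 1 and 1.27 in run 2. Its adjusted p was 0.391 in the unblocked limma fit and 0.0116 in the blocked one, or 0.0384 there with the Btk KO array of run 1 left out. Klrd1 was higher in run 2 in all 3 groups.

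Eomes, the T-box factor needed for the maturation of NK cells, had 2 probe sets. The brighter one measured 60.3 and 107.8 in Btk KO, 31.5 and 44.0 in Xid and 24.1 and 27.4 in CBA, and the groups did not overlap. Its Btk KO mean was 3.26 times that of CBA, a log2 difference of 1.45 ± 0.35. Its adjusted p was 0.217 unblocked, 0.0443 blocked, and 0.0888 blocked with the Btk KO array of run 1 left out. The dimmer one measured 41.1 and 56.7 in Btk KO, 11.9 and 27.0 in Xid and 20.1 and 18.9 in CBA. Here Btk KO again lay above the other 4 arrays, but Xid spanned CBA and the mean signal was close to the dim limit of 19.8 in both. Its difference of Btk KO against CBA, 1.09 ± 0.39, did not pass in either fit (adjusted p = 0.459 unblocked and 0.191 blocked).

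The granule proteins included the brightest signal among the members. Gzma, granzyme A, measured 218.3 and 560.2 in Btk KO, 144.7 and 291.4 in Xid and 86.0 and 128.9 in CBA. Both mutant lines lay above CBA on every array, and each group was higher in run 2. The Btk KO mean of 389 ± 242 was 3.62 times the CBA mean of 107 ± 30.3 (SD, n = 2 each). The log2 difference was 1.68 ± 0.49, at 1.29 in run 1 and 2.07 in run 2. Its adjusted p was 0.322 unblocked, 0.0118 blocked, and 0.012 blocked with the Btk KO array of run 1 left out. Gzmb, granzyme B, measured 44.1 and 88.0 in Btk KO, 24.3 and 39.2 in Xid and 24.4 and 27.7 in CBA. Its difference of 1.10 ± 0.39 between Btk KO and CBA did not pass (adjusted p = 0.443 unblocked and 0.126 blocked). Prf1, perforin, measured 82.3 and 107.7 in Btk KO, 65.6 and 54.4 in Xid and 33.3 and 60.5 in CBA. Its Btk KO arrays were the highest of the 6 and the Xid arrays lay within or just above the CBA range. The difference of 0.97 ± 0.32 did not pass (adjusted p = 0.394 unblocked and 0.153 blocked).

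Stretches of 250 bases at the start of these 3 granule genes (GRCm38.p6) are shown because their signals were higher together in Btk KO. Those of Gzma and Gzmb end where the RefSeq gene begins. That of Prf1 runs past its RefSeq gene start at base 61297751, so its last part lies inside the annotated gene. Capitals mark the Runx core TGTGGT on either strand, written ACCACA where it lies on the opposite strand; Runx factors act in cytotoxic T and NK cells.
Gzma promoter, chr13:113100982-113101231, minus strand: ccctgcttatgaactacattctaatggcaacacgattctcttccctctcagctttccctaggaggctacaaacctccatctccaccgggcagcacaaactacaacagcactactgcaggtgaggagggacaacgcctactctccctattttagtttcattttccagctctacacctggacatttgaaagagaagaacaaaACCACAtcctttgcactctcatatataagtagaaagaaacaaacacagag
Gzmb promoter, chr14:56262335-56262584, minus strand: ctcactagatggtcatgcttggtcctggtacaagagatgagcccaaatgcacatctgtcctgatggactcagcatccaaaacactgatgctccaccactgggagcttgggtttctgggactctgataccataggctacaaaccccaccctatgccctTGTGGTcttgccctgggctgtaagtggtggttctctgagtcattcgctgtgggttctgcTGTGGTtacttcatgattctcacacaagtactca
Prf1 promoter, chr10:61297586-61297835, plus strand: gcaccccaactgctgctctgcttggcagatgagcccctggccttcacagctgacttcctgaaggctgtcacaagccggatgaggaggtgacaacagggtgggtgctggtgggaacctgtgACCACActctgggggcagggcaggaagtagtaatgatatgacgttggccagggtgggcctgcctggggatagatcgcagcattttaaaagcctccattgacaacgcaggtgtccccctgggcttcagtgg
Positions are counted back from the end of each window. The core was found once for Gzma, from base 50, and once for Prf1, from base 130. For Gzmb it was found 2 times, from bases 93 and 34. Of the 7 member genes with a window in the table, 4 held it (these 3 and Nkg7), beside 14.0% of the 32851 windows of all genes. Of the other motifs searched on both strands, the T-box core GTGTGA was in 2 of 7 member windows and 12.3% of all windows. The AP-1 site TGANTCA was in 1 and in 6.75%, and the ETS core GGAAGT in 2 and in 19.7%. None of the matches in these windows overlapped a match of another motif. A match is a run of letters and was not tested as a binding site.

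Il2rb and Fasl complete the measured members. Il2rb, the chain shared by the receptors for interleukin-2 and interleukin-15, measured 19.4 and 73.8 in Btk KO, 26.6 and 42.5 in Xid and 35.8 and 47.8 in CBA. The Btk KO arrays were the lowest and the highest of all 6, and the groups overlapped. The log2 difference of Btk KO against CBA was -0.72 in run 1 and 0.57 in run 2, and -0.07 ± 0.53 over both (adjusted p = 0.991 unblocked and 0.956 blocked). With the Btk KO array of run 1 left out, the unblocked difference was 0.75 (adjusted p = 0.884). Fasl, the ligand that triggers the death receptor Fas, measured 38.8 and 61.0 in Btk KO, 12.5 and 34.4 in Xid and 12.3 and 22.9 in CBA. The Btk KO arrays lay above the other 4, while Xid and CBA overlapped. Its difference of 1.25 ± 0.48 did not pass (adjusted p = 0.501 unblocked and 0.11 blocked). Its CBA mean of 17.6 lies below the dim limit, and over the alternatives run the difference ranged from 0.72 to 1.58.

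In Xid against CBA the same members differed by less. This comparison uses the CBA arrays of the previous one, so the 2 are not independent. The median log2 difference was 0.36, at 0.32 in run 1 and 0.48 in run 2, beside 0.01 over all probe sets tested. Klra3, Gzma and the brighter Eomes probe set were higher on both Xid arrays than on both CBA arrays, which is 3 of 9, beside 17.0% of all probe sets. Within both runs 5 of 9 were higher, beside 27.8%. With limma 0 members passed in either fit, where 0.0134% of all probe sets were called higher and 0.0537% lower unblocked, and 0.362% higher and 0.121% lower blocked. Leaving out the Btk KO array of run 1, which enters the shared estimate of spread, the blocked fit also called 0, beside 0.617% of all probe sets. At an unadjusted p under 0.05 the unblocked count was 0, beside 4.43% of all probe sets. The blocked count was 3 (Gzma, Klrd1 and Klra3), beside 8.1%. Gzma had the largest difference, at 0.93 ± 0.49, 0.71 in run 1 and 1.14 in run 2 (adjusted p = 0.999 unblocked and 0.184 blocked). Klrd1 differed by 0.60 ± 0.45 and Klra3 by 0.59 ± 0.33. Prf1 differed by 0.87 in run 1 and -0.14 in run 2, and the dimmer Eomes probe set by -0.54 and 0.41, so neither kept its sign. Gzmb, Fasl and Il2rb differed by 0.21, 0.25 and -0.25.

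Set directly against Xid, Btk KO had the higher mean for all 9 probe sets. The differences ranged from 0.18 for Il2rb to 1.16 for the dimmer Eomes probe set, with a median of 0.89, beside 0.00 over all probe sets tested. Both Btk KO arrays lay above both Xid arrays for 6 of 9 (Klra3, both Eomes probe sets, Gzmb, Prf1 and Fasl), beside 14.2% of all probe sets. Of these, the dimmer Eomes probe set and Fasl passed the dim filter only through their Btk KO signal. Within both runs 8 of 9 were higher, beside 27.2%. Still, 0 members passed with limma in either fit, where 0.0268% of all probe sets were called higher and 0.0134% lower unblocked, and 0.107% higher and 0.0805% lower blocked. The blocked fit with the Btk KO array of run 1 left out also called 0, beside 0.0939%. Unadjusted p was under 0.05 for 3 of 9 unblocked, beside 3.61% of all probe sets, and for 7 of 9 blocked, beside 7.31%. The smallest adjusted p of a member in the blocked fit was that of Klra3, at 0.317 (difference 0.99 ± 0.33, SE of the unblocked fit). Ordered by group means, 7 of 9 probe sets ran Btk KO, Xid, CBA from high to low, beside 23.9% of all probe sets. The exceptions were Il2rb and the dimmer Eomes probe set.

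**Figure D2:**
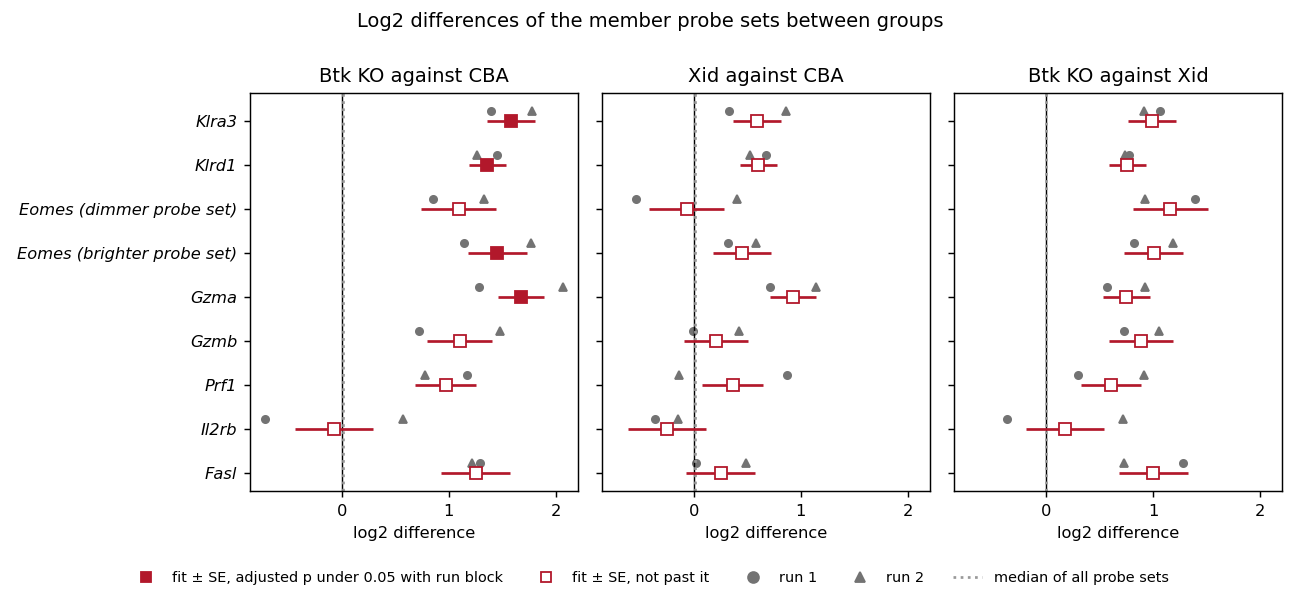
Log2 difference of each member probe set in 3 comparisons (x axis), with squares for the fit and bars for its SE with the run as a block; filled squares have limma adjusted p under 0.05 in that blocked fit, and circles and triangles are the differences within run 1 and run 2. Filled squares occur in Btk KO against CBA alone, for Klra3, Klrd1, Gzma and the brighter Eomes probe set, and Il2rb has opposite signs in the 2 runs there.

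The mean of both mutant lines was also set against CBA. The median over the members was 0.75, at 0.73 in run 1 and 0.90 in run 2, beside 0.01 over all probe sets tested. All 4 mutant arrays lay above both CBA arrays for 3 of 9, beside 9.82% of all probe sets, and 8 of 9 were higher within both runs, beside 29.4%. In the unblocked limma fit 0 passed, where 0.0939% of all probe sets were called higher and 0.0537% lower. There 5 of 9 had an unadjusted p under 0.05, beside 7.37%, and in the blocked fit 7 of 9, beside 12.7%. In the blocked fit 3 rose, beside 1.29%, and 0 fell, beside 0.644%. These were Gzma at 1.30 ± 0.42 (adjusted p = 0.0196), Klrd1 at 0.98 ± 0.39 (0.0245) and Klra3 at 1.09 ± 0.28 (0.040), with SEs of the unblocked fit. With the Btk KO array of run 1 left out, Gzma (adjusted p = 0.0059) and Klrd1 (0.0265) passed in the blocked fit, beside 1.27% of all probe sets, and Klra3 did not (0.0519).

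The runs differed in these genes within every group. Run 2 exceeded run 1 for 9 of 9 probe sets in Btk KO, 8 of 9 in Xid and 8 of 9 in CBA, while 48.0%, 51.1% and 44.1% of all tested probe sets did so. The median log2 excess of run 2 was 0.78 in Btk KO, 0.73 in Xid and 0.36 in CBA. The 2 arrays of a group therefore differed in the same sense, and the block takes out the part of this that the groups share. Wild type mice carried measurable signal of these genes too, with summed intensities of the 9 probe sets of 814.8 and 1578.3 in Btk KO, 480.0 and 828.7 in Xid and 344.1 and 521.0 in CBA.

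Other genes of NK and cytotoxic cells were taken from 9 wider lists of 105 genes. Of these, 67 had a probe set of their own and 42 a signal above the dim limit, and each gene entered by its brightest kept probe set. Ctsw and Klrb1a passed that limit only through their Btk KO signal, and both are among the genes counted as higher below. In Btk KO against CBA 32 of the 42 were higher and 10 lower, while 51.1% of all probe sets were higher. The median log2 difference was 0.52, beside 0.01 over all probe sets. In the unblocked limma fit 0 passed, beside 0.161% of all probe sets called higher, and 12 had an unadjusted p under 0.05, beside 8.83%. In the blocked fit 4 rose (Tyrobp, Id2, Ccl5 and Ccr2), beside 1.42%, and 0 fell, beside 0.805%. The counts of single lists that follow have the same shares over all probe sets beside them: at an unadjusted p under 0.05, 8.83% unblocked and 15.1% blocked. Without the Btk KO array of run 1, 1 Btk KO array remains. The blocked differences were then 1.23 for Tyrobp, 1.88 for Id2, 1.43 for Ccl5 and 1.21 for Ccr2. In Xid against CBA the median was 0.35, and 1 gene, Id2, rose in the blocked fit, beside 0.362% of all probe sets. Tyrobp was called there too with the Btk KO array of run 1 left out (adjusted p = 0.0428, against 0.127 with that array), beside 0.617%.

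Among receptors, 9 of 33 listed genes were measured above the dim limit, and all 9 were higher in Btk KO than in CBA, with a median of 0.90. Klrb1a is among them, at 36.6 and 52.5 in Btk KO, 22.2 and 28.7 in Xid and 21.0 and 8.1 in CBA. Klrb1a passed the dim limit only through its Btk KO signal. With both Btk KO arrays in the limma fits 0 receptors passed, blocked or not (4 had an unadjusted p under 0.05 unblocked and 7 blocked). Ncr1, which encodes the NK receptor NKp46, measured 62.4 and 163.1 in Btk KO, 49.3 and 46.3 in Xid and 41.0 and 30.3 in CBA. Its signal was thus highest on the Btk KO array of run 2, and its difference from CBA was 1.38 (adjusted p = 0.361 unblocked and 0.146 blocked). In the blocked fit without the Btk KO array of run 1, the difference was 2.15 and rested on the 1 Btk KO array of run 2. Cd244a, the receptor 2B4, measured 79.2 and 70.6 in Btk KO, 43.2 and 46.2 in Xid and 27.2 and 34.7 in CBA. Klrc1, the NKG2A partner of Klrd1, measured 39.1 and 116.1 in Btk KO, 26.1 and 47.8 in Xid and 32.8 and 37.9 in CBA.

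Of the adaptors through which such receptors signal, 4 of 7 were measured and 1 rose in the blocked fit. Tyrobp, which encodes DAP12, measured 981.0 and 1548.0 in Btk KO, 571.3 and 1233.0 in Xid and 316.0 and 649.3 in CBA (difference of Btk KO against CBA 1.43, adjusted p = 0.387 unblocked and 0.00997 blocked). Macrophages carry Tyrobp too. Sh2d2a and Sh2d1b1, adaptors with an SH2 domain, differed by -0.54 and 0.48.

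Granule genes beyond the members were mostly dim. Of 10 listed granule proteins 8 had a probe set and 2 passed the dim limit: Ctsw, a protease of cytotoxic lymphocytes, at 17.5 and 88.0 in Btk KO, 10.7 and 38.3 in Xid and 6.3 and 11.3 in CBA, and Srgn, the granule proteoglycan, with a difference of -0.08. Ctsw passed that limit only through its Btk KO signal. Gzmk, Gzmm, Gzmc, Gzmd, Gzmf and Gzmg were left out as dim; Gzmk read at most 11.5 and Gzmm at most 16.6 on any array. For granule processing and release, 6 of 11 genes were measured with a median of 0.37 and 0 calls in either limma fit (1 at an unadjusted p under 0.05 unblocked, 2 blocked). Lamp1, a lysosomal membrane protein, differed by 0.59, Ctsc, which activates granzymes, by 0.17 and Stxbp2, which acts in granule release, by 0.19.

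Among transcription factors 3 of 10 were measured. Id2, needed for NK cells and also active in macrophages and dendritic cells, measured 409.2 and 708.1 in Btk KO, 227.8 and 464.8 in Xid and 110.0 and 177.2 in CBA. The groups did not overlap except that the higher Xid array exceeded the lower Btk KO array. Against CBA it rose in the blocked fit in Btk KO (1.90, adjusted p = 0.0053, or 0.171 unblocked) and in Xid (1.19, adjusted p = 0.0336, or 0.889 unblocked). Ets1 and Nfil3 differed by -0.26 and 0.45 in Btk KO.

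Of the cytokine receptors and cytokines 5 of 11 were measured, all higher in Btk KO, with a median of 0.44 and 0 calls with limma (2 at an unadjusted p under 0.05 in each fit). Ifngr1, Il15ra and Il18 differed by 0.34, 0.44 and 1.0. Of the effector cytokines and chemokines 4 of 7 were measured. Ccl5, the chemokine RANTES of cytotoxic lymphocytes, measured 568.4 and 1602.6 in Btk KO, 324.6 and 772.8 in Xid and 205.4 and 627.0 in CBA. Within each run the order was Btk KO, Xid, CBA, but the lower Btk KO array lay below the higher CBA array; the difference of 1.39 passed blocked (adjusted p = 0.00911) and not unblocked (0.623). Ccl3 differed by 1.36 and Tnf by -0.62. Ifng was left out as dim, at most 18.5 on any array.

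Among death receptors and ligands other than Fasl, Ltb, the lymphotoxin beta chain, measured 4655.1 and 3889.5 in Btk KO, 5810.0 and 4551.0 in Xid and 5423.2 and 4804.3 in CBA. These values lie within the range of the B cell marker Cd79a, 3066.3 to 6004.4. Which cells carry the genes of this list was not tested. The 5 measured genes of that list had a median of -0.26 in Btk KO and 0 calls with limma (1 at an unadjusted p under 0.05 in each fit). Lta and Casp8 differed by -0.31 and -0.14. Of the chemokine receptors 4 of 7 were measured. Ccr2, of monocytes and some NK cells, measured 123.8 and 354.0 in Btk KO, 53.5 and 156.6 in Xid and 59.3 and 142.5 in CBA, and rose in the blocked fit (1.13, adjusted p = 0.0286, or 0.707 unblocked and 0.0692 blocked with the Btk KO array of run 1 left out). Cxcr3 and Cx3cr1 differed by 0.31 and -0.31.

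**Figure D3:**
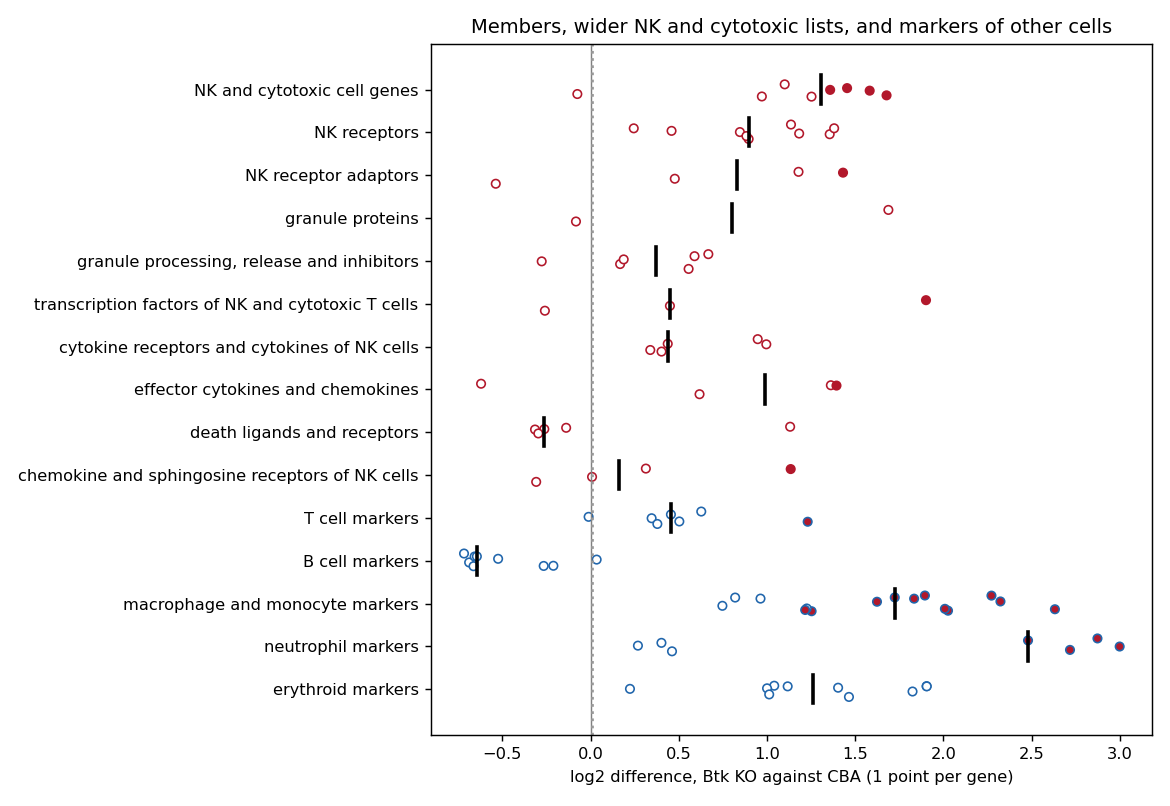
Log2 difference of Btk KO against CBA (x axis) for the 8 measured members, the 9 wider NK and cytotoxic lists and 5 lists of markers of other cells, 1 point per gene by its brightest kept probe set; filled points have limma adjusted p under 0.05 with the run as a block and black bars are list medians. The members' median of 1.31 lies nearest that of erythroid markers (1.26) among the 5 marker lists. The others were 0.46 for T cell, 1.72 for macrophage, 2.48 for neutrophil and -0.64 for B cell markers.

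The medians of T cell, macrophage, neutrophil and erythroid markers were also higher in Btk KO than in CBA, while that of B cell markers was lower. The part of these cells in the result was not tested. For T cells, 14 of 20 markers had a probe set and 7 were measured, 6 of them higher in Btk KO than in CBA, with a median of 0.46. The summed intensity of all 16 probe sets of the 14 genes, dim ones included, was 510.8 and 688.7 in Btk KO, 427.2 and 481.9 in Xid and 276.9 and 501.6 in CBA. Cd3e, of the T cell receptor complex, measured 17.0 and 62.6 in Btk KO, 38.5 and 11.5 in Xid and 9.7 and 56.2 in CBA. Cd8a, of cytotoxic T cells, was left out as dim at 5.4 and 22.3 in Btk KO, 3.7 and 9.0 in Xid and 4.3 and 10.3 in CBA. Cd8b1 read at most 16.2. Cd4 differed by 0.38. Il7r, the interleukin-7 receptor chain, was the one T cell marker that rose in the blocked fit (1.23, adjusted p = 0.0499, or 0.279 unblocked and 0.132 blocked with the Btk KO array of run 1 left out). No marker probe set was at 0 on any array.

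Macrophage and monocyte markers, of which 15 of 20 were measured, had a median of 1.72 in Btk KO and 1.11 in Xid. In Btk KO 3 rose in the unblocked fit, beside 0.161% of all probe sets, and 11 in the blocked one, beside 1.42%. The blocked count was 10 with the Btk KO array of run 1 left out, beside 0.805%: Adgre1, Cd14 and Ctsb were no longer called, and C1qa and Fcgr1 were. The summed intensity of all 31 probe sets of the 18 genes on the array, dim ones included, was 12423.1 and 16408.9 in Btk KO, 7648.2 and 11818.3 in Xid and 3829.2 and 5586.4 in CBA, so it too was higher in run 2 in every group. Lyz2, lysozyme of myeloid cells, differed by 0.82. Neutrophil markers, with 7 of 15 measured, had a median of 2.48 in Btk KO and 0.28 in Xid; 2 rose in Btk KO unblocked and 4 blocked, beside the same 0.161% and 1.42%. All 16 probe sets of the 13 genes on the array, dim ones included, summed to 1016.4 and 1794.9 in Btk KO, 340.3 and 300.3 in Xid and 242.8 and 299.3 in CBA. S100a8, a calcium-binding protein of neutrophils, measured 267.1 and 629.3 in Btk KO, 65.4 and 50 in Xid and 50.9 and 64.5 in CBA.

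Erythroid markers, with 10 of 15 measured, had a median of 1.26 in Btk KO and 0 calls with limma in either fit (8 at an unadjusted p under 0.05 in each, beside 8.83% and 15.1% of all probe sets). All 16 probe sets of the 11 genes on the array summed to 22585.9 and 10933.4 in Btk KO, 9416.5 and 8001.6 in Xid and 5826.5 and 7871.1 in CBA. They were highest on the Btk KO array of run 1, whereas all 9 NK and cytotoxic probe sets were higher on the Btk KO array of run 2. Hba-a1, a globin, differed by 1.04. B cell markers, with 9 of 10 measured, had a median of -0.64 in Btk KO and -0.16 in Xid, with 0 calls in either limma fit (3 at an unadjusted p under 0.05 in Btk KO unblocked and 6 blocked, beside the same shares). All 12 probe sets of the 9 genes summed to 19851.9 and 18110.0 in Btk KO, 26578.5 and 20524.2 in Xid and 26300.5 and 25851.9 in CBA. Cd79a differed by -0.69 and the brighter Ms4a1 probe set, for CD20, by -0.27.

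**Figure D4:**
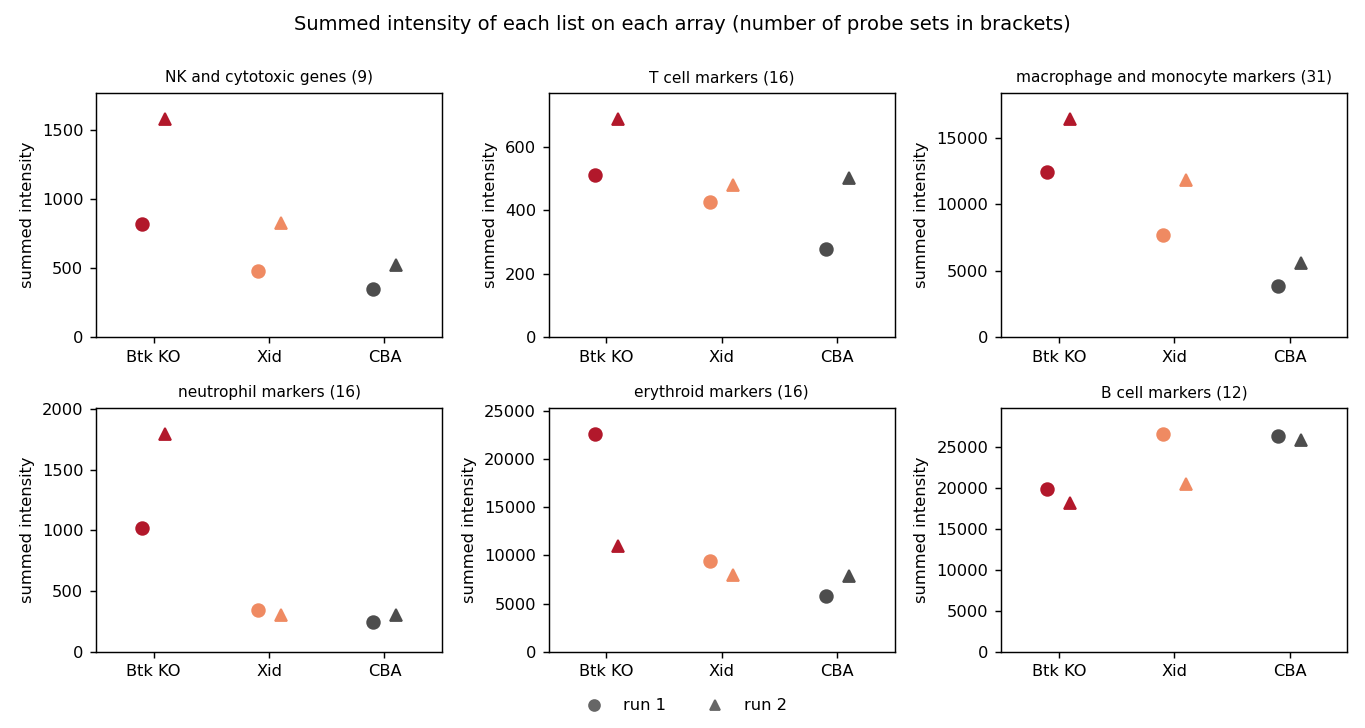
Summed intensity (scaled units, linear axis from 0) of the 9 member probe sets and of the probe sets of 5 marker lists on each array, with circles for run 1 and triangles for run 2. The members' sum runs from 344.1 in CBA of run 1 to 1578.3 in Btk KO of run 2, and the erythroid sum is highest, at 22585.9, in Btk KO of run 1.

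Genes outside the NK and cytotoxic lists were ranked by the likeness of their signal to the mean log2 value of the 8 measured members over the 6 arrays, which share groups and runs. Pearson's r with that mean was between 0.85 and 0.98 for 7 of the members' own probe sets and 0.51 for Il2rb. Each member is part of that mean, so its r is raised by construction and does not measure how alike the members are. The 5 most like genes were Vps26b (r = 0.998), Kcnh2 (0.987), AW112010 (0.987), Zap70 (0.986) and Gm7775 (0.980). They were drawn from those of the 7453 kept probe sets that carry 1 symbol and lie outside these lists, with 1 probe set per gene. Zap70, the kinase that relays signals of T cell and some NK cell receptors, measured 133.6 and 273.4 in Btk KO, 73.9 and 151.2 in Xid and 48.0 and 94.8 in CBA. AW112010 measured 346.3 and 652.5 in Btk KO, 253.6 and 322.3 in Xid and 177.6 and 231.7 in CBA. Vps26b, a subunit of the retromer that sorts membrane proteins, measured 40.1 and 69.5 in Btk KO, 25.8 and 38.0 in Xid and 19.7 and 30.0 in CBA.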

How the data were processed

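RNA of spleen B cells was measured on 6 arrays. The authors deposited 1 linear intensity per probe set and array, already scaled: the 2% trimmed mean was near 100.06 on every array. The software that summarised the probes is not given in the sources used here. Chip lot and hybridisation day were read from the deposited scanner headers. Of 12422 probe sets, 10833 carry 1 symbol in the annotation, 396 carry more and 1193 carry none. A RefSeq table of GRCm38.p6 held 10817 of them by gene number. It gave the gene names and the gene positions cited here.

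Intensities were taken to log2 after adding a pseudocount of 6, near the 20th percentile of all values. Probe sets whose mean log2 value lay below the 40th percentile, about 19.8 in intensity, were left out as dim. One model of the 3 group means was fitted with limma 3.58.1 (eBayes with an intensity trend; R 4.3.3), which leaves 3 residual degrees of freedom, or 2 with the run as a block. Tests were two-sided and Benjamini-Hochberg adjusted over 7453 probe sets; p-values from a single comparison are limma's. The unblocked fit was run on simulated data without a run effect, to check that it recovered the sizes of changes put in. The blocked fit was not simulated. The run pairs the samples: the design text describes 2 sets of chips, and deviations from group means correlated at 0.37 for Btk KO with CBA, 0.44 for Btk KO with Xid and 0.31 for Xid with CBA within a run. Blocked values stand beside results whose call they change.

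Members, lists and the rule for named genes were chosen with earlier results of these data known. The rule names all members, Btk, the 3 brightest genes of each wider list (where as many were measured), list genes that passed in either fit, fixed markers of other cells, and the 5 genes most like the members in pattern. Further genes were named after their values were seen: Cd8b1, Ifng, Klrb1a, the macrophage markers whose call changed without 1 array, and the dim granzymes. Figures were drawn with matplotlib 3.10.9.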

Additional observations from a re-analysis of the deposited data

How the results depend on the processing

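No member passed in any comparison with limma in the fit without a run block, nor under quantile normalization, median centring, pseudocounts of 1, 16 or 32, no filter, the 60th percentile filter, a fit with no intensity trend, a fit to just the groups compared, or with any single array left out (0 each). These zeros say little where the setting called few probe sets at all. In Btk KO against CBA the unchanged setting called 13 of all probe sets. That count was 0 with no intensity trend, with just the groups compared, and without either CBA or either Xid array. It was 12 without Btk KO of run 1, 145 without Btk KO of run 2, and 8 to 29 under the others. The replicate block was the one choice that gave calls: 4 members in Btk KO against CBA and 3 when the mutant lines were averaged and set against CBA. Leaving out Btk KO of run 1 under the block gave 2 for both; 0 members were called in Xid against CBA or in Btk KO against Xid under any of these. The median of the members kept its sign throughout. In Btk KO against CBA it was 1.10 with quantile normalization, 1.41, 0.97 and 0.72 with pseudocounts of 1, 16 and 32, and 1.47 with the 60th percentile filter, which keeps 4 of the 9 probe sets. Leaving out 1 array gave 0.95 to 1.55. In Xid against CBA it was 0.24 with a pseudocount of 32, 0.60 with the stricter filter, and 0.10 to 0.66 with 1 array left out (lowest without CBA of run 1). In Btk KO against Xid it was 0.99, 0.75 and 0.66 with pseudocounts of 1, 16 and 32, 0.75 with the stricter filter, 0.44 to 1.29 with 1 array left out, and 1.04 under the block with Btk KO of run 1 left out. For the mean of both lines it was 0.61 with quantile normalization, 0.89, 0.58 and 0.47 with those pseudocounts, 1.03 with the stricter filter and 0.55 to 1.05 with 1 array left out. A larger pseudocount shrinks the differences of dim probe sets by construction; the cause of the other shifts was not tested. Of single probe sets, Il2rb changed sign most often. In Btk KO against CBA it was 0.0037 with a pseudocount of 32, 0.11 without CBA of run 2, 0.75 without Btk KO of run 1 and 0.52 with the block as well (range with 1 array left out -0.90 to 0.75). For the mean of both lines it was 0.018 without CBA of run 2, 0.25 without Btk KO of run 1 and 0.13 with the block as well (range -0.58 to 0.25). In Xid against CBA it was 0.032 without Xid of run 1 (range -0.54 to 0.032), and in Btk KO against Xid -0.11 without Xid of run 1 and -0.65 without Btk KO of run 2 (range -0.65 to 1.0). In Xid against CBA the dimmer Eomes probe set was 0.37 without Xid of run 1, Gzmb -0.079 and Fasl -0.31 without Xid of run 2, and Prf1 -0.016 and Fasl -0.080 without CBA of run 1. With 1 array left out these ranged from -0.51 to 0.37 for Eomes, -0.079 to 0.50 for Gzmb, -0.016 to 0.74 for Prf1 and -0.31 to 0.81 for Fasl. The remaining 8 probe sets kept a higher sign in Btk KO against CBA under every alternative run. Eomes, Gzmb, Il2rb and Fasl lie near the dim limit, where array signal limits what can be read. Across 9 probe sets, 4 comparisons and the alternatives, 557 values kept direction and call, 11 gained a call with the block and 15 changed sign.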
